A study of Mus musculus with 4 samples.

Results

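The B cell lineage genes examined here were 9 genes chosen by name, Ighm, Cd79a, Cd79b, Blk, Cd22, Cd72, Ms4a1, Pax5 and Ebf1, with every probe set that the platform annotation ties to exactly 1 of these symbols. They came to 26 of the 34945 probe sets with a single gene symbol, or 9 of 18193 genes. The study measured transcripts with 1 single-channel oligonucleotide array per culture of mouse dendritic cells (DCs), the antigen-presenting cells of the immune system, raised from marrow in GM-CSF, a myeloid growth factor, and enriched with beads for the DC integrin CD11c. The 4 cultures were LXR-DKO LPS, LXR-DKO control, WT LPS and WT control. LXR-DKO cells were from mice deficient in LXRα and in LXRβ, the nuclear receptors that sense oxysterols and govern lipid genes, and WT cells were from mice with both receptors; the labels give strain C57/BL6 for each culture. LPS cultures had lipopolysaccharide, a bacterial activator of DC maturation, at 100 ng/mL beside GM-CSF at 10 ng/mL for 24 h, and control cultures had GM-CSF at 10 ng/mL alone for 24 h. The labels name no cell type to which the deficiency is limited, and neither the number nor the sex of the mice behind a culture is given in the sources used here.

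B lymphocytes carry a membrane immunoglobulin, in naive cells including IgM, held in a complex with the signalling chains encoded by Cd79a and Cd79b. Src-family kinases such as Blk pass the signal on, the coreceptors encoded by Cd22 and Cd72 damp it, and the transcription factors Ebf1 and Pax5 set up and keep the B cell programme. Bone marrow is the site where B cells are made, while cultures with GM-CSF favour myeloid cells.

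Each group had 1 array, so there is no replicate to check a difference against, no test was made, and the small number of arrays limits the precision. Signals are linear MAS5 units, scaled by the authors to the same trimmed mean of 200.0 on every array. Signals under 28.9, the median of all probe sets, were set to this floor in ratios, so a ratio with 1 value below it is a lower limit on the size of the difference and is given as "at least". The error available is the SD among log2 ratios from different probe sets of a gene, which was 0.54 for LXR-DKO over WT with LPS, 0.45 without LPS, 0.42 for the LPS response in LXR-DKO and 0.29 for that in WT. It does not cover differences between cultures or mice. The targeted gene Nr1h3, which encodes LXRα, had signals of 27.0 and 40.4 in LXR-DKO LPS and control, against 54.5 and 108.6 in WT LPS and control, and the place of its probe set relative to the deletion was not known. The arrays differed in sex-linked genes. Xist, the RNA that silences an X chromosome in female cells, stood at 2090.4 and 2750.0 in LXR-DKO LPS and control, against 22.7 and 30.8 in WT LPS and control. The 3 Y-linked genes examined reached the floor on every array, so the LXR-DKO arrays had signal from both Xist and Y-linked genes. Without LPS they were lower in LXR-DKO, Uty by 4.32-fold, Eif2s3y by 2.63-fold and Kdm5d by 2.25-fold. With LPS Uty was 2.26-fold lower and the other two were within 2-fold. The part of sex in the results below was not tested.

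Most of the 9 genes were higher in LXR-DKO than in WT cultures, and the difference was wider with LPS. With LPS, 6 of 9 members lay 2-fold or more above WT in LXR-DKO, where 17.8% of all measured genes did, and 0 of 9 lay 2-fold or more below, against 8.76% of all genes. Without LPS, 5 of the 8 members with a value at or above the floor were higher by this much, against 12.7% of all genes, and 0 were lower by as much, against 9.28%. Over single probe sets, 13 of the 19 measured with LPS were higher, against 16.2% of all probe sets, and 1 lower, against 9.15%, while without LPS 8 of 17 were higher, against 12.5%, and 2 lower, against 8.39%. The median log2 ratio of measured members was 3.78 with LPS and 1.70 without, while the medians over all measured genes were 0.15 and 0.045. The median with LPS is the lower limit of Cd79a, and the one without LPS lies between the ratio of Cd72 and the lower limit of Cd79a, so both depend on the floor. Medians of the gene groups described further on contain lower limits as well. Several members entered these counts only through the LXR-DKO arrays and so could only be higher there, which makes the counts a description of the members and no more. In bulk RNA, fewer cells of a type and less RNA per cell cannot be told apart.

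**Figure D1:**
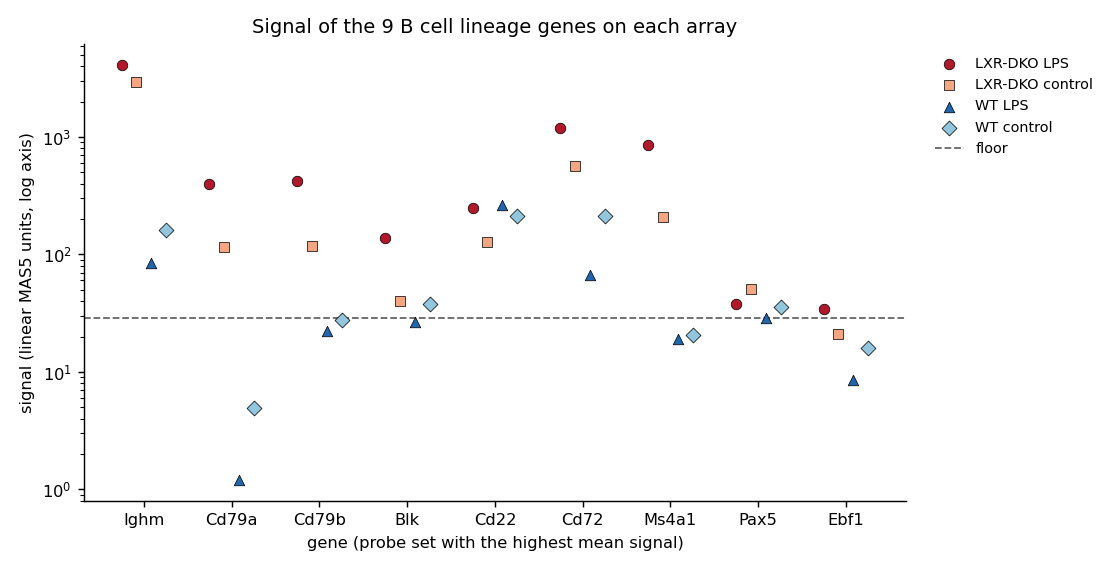
Signal of the 9 B cell lineage genes on each of the 4 arrays, for the probe set of each gene with the highest mean signal; the vertical axis is logarithmic and the dashed line is the floor of 28.9. For Ighm, Cd79a, Cd79b, Cd72 and Ms4a1 both LXR-DKO points lie above both WT points. For Blk, Pax5 and Ebf1 the order is the same, but most of their points lie near or below the floor. For Cd22 the LXR-DKO control point is the lowest. Points of the same genotype differ in treatment and are not replicates, and the share of all genes with this order was not counted.

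Sequence upstream of the transcription start, as RefSeq gives it for build GRCm38.p6, was found for 5 of the 9 members, Cd79a, Cd22, Cd72, Pax5 and Ebf1, which has 2 starts. Short motifs of B cell and myeloid factors, chosen with results of these data known, were searched on both strands in the 250 bases before each start. The octamer bound by OCT factors, ATTTGCAT, was in 0 of these 6 windows and in 1.6% of 32851 mouse windows of the same length. The core of the EBF palindrome, CCCNNGGG, was in 1 of the 6 and in 11.8% of all windows, and the core bound by PU.1, GAGGAA, in 3 of the 6 and in 23.3% of all. The motifs can overlap and a match is a description of letters, not a binding site. Nor does a window without a match show that a site is absent. The windows of Cd79a and Cd72, both at least 2-fold higher in LXR-DKO, are shown beside those of Cd22 and of the second Ebf1 start. With the floor of 28.9, Cd22 and Ebf1 were not called 2-fold higher. Matches are in capitals (GAGGAA, or TTCCTC on the other strand, in Cd79a, Cd72 and Ebf1, and the EBF core in Cd22). The PU.1 core was thus found in Cd79a and Cd72, which were called higher, and in Ebf1. The ratio of Ebf1 with LPS was a lower limit, so whether it was 2-fold higher is not settled. Some starts lie inside the gene's annotated span, downstream of its outermost start: by 476 bases in Cd72, 1314 bases in Cd22 and 2128 bases for the second start of Ebf1, while that of Cd79a is the outermost.
Cd79a promoter, chr7:24897247-24897496, plus strand: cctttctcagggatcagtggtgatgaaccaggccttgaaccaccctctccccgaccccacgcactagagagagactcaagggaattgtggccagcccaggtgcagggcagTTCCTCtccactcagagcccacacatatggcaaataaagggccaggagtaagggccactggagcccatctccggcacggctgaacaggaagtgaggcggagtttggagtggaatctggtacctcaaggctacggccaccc
Cd72 promoter, chr4:43454627-43454876, minus strand: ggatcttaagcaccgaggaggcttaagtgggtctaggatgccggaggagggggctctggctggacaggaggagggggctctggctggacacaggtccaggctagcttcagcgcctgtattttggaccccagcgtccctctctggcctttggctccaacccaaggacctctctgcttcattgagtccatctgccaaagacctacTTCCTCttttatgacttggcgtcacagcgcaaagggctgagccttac
Cd22 promoter, chr7:30879029-30879278, minus strand: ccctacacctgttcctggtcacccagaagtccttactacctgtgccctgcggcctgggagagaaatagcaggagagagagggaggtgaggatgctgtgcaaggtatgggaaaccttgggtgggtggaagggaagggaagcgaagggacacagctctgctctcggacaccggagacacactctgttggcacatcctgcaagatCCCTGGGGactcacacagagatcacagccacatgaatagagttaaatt
Ebf1 promoter, chr11:44619978-44620227, plus strand: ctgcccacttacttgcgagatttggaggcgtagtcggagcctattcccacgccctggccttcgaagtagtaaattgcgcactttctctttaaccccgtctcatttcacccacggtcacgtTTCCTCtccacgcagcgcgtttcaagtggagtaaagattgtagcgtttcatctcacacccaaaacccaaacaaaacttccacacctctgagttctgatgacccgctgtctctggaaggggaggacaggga
The match began 140 bases before the start in Cd79a, 47 bases in Cd72, 48 bases in Cd22 and 130 bases in Ebf1.

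The signalling chains of the B cell receptor were above the floor in LXR-DKO cultures and below it in WT cultures. Cd79a had signals of 397.7 in LXR-DKO LPS and 114.6 in LXR-DKO control, against 1.2 in WT LPS and 4.9 in WT control. Cd79b, which encodes its partner chain, had 420.7 and 117.5 in LXR-DKO LPS and control, against 22.4 and 27.5 in WT LPS and control. Each gene has 1 probe set, and for both genes each LXR-DKO signal was above each WT signal. The arrays of a genotype differ in treatment and are not replicates, and the share of all genes with this order was not counted. In LXR-DKO, Cd79a was higher by at least 13.8-fold with LPS and by at least 3.97-fold without LPS. Cd79b was at least 14.6-fold and at least 4.07-fold higher in the same comparisons.

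Ms4a1, which encodes the B cell surface protein CD20, had the same order of arrays on both of its probe sets. Its brighter probe set stood at 851.0 in LXR-DKO LPS and 208.4 in LXR-DKO control, against 19.1 in WT LPS and 20.5 in WT control. The other stood at 277.1 and 69.1 in LXR-DKO LPS and control, against 2.0 and 8.1 in WT LPS and control. Both probe sets were below the floor in WT cells and above it in LXR-DKO cells. The lower limits were 29.4-fold and 9.59-fold with LPS, and 7.21-fold and 2.39-fold without LPS.

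Blk, a kinase of the receptor pathway, was higher in LXR-DKO with LPS, while its ratio without LPS was near 0. It had 138.4 in LXR-DKO LPS and 40.5 in LXR-DKO control, against 26.4 in WT LPS and 38.1 in WT control. The LXR-DKO LPS array stood apart and the other 3 were close to the floor. With LPS, Blk was higher by at least 4.79-fold in LXR-DKO, while the log2 ratio without LPS was 0.088, within the spread between probe sets and below 0 after scaling to the same 75th percentile and after quantile normalization.

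The 2 inhibitory coreceptors went separate ways. Cd72, a lectin-like coreceptor also known from other antigen-presenting cells, had 1186.6 in LXR-DKO LPS and 562.5 in LXR-DKO control, against 67.2 in WT LPS and 211.6 in WT control. Cd72 reached the floor on every array, so its ratios are not limits. It was 17.7-fold higher in LXR-DKO with LPS and 2.66-fold higher without. These ratios rest on 1 probe set, which carries a suffix for targets shared among transcripts. Cd22, which binds sialic acid on glycoproteins, had 249.4 in LXR-DKO LPS and 128.2 in LXR-DKO control, against 264.1 in WT LPS and 213.3 in WT control. Its second probe set had 83.7 and 29.5 in LXR-DKO LPS and control, against 69.8 and 61.6 in WT LPS and control. On both probe sets the LXR-DKO control array was the lowest of the 4. The log2 ratios of LXR-DKO over WT were -0.73 and -1.06 without LPS, both below the ratio of every other member's brightest probe set, and -0.08 and 0.26 with LPS, both within the spread between probe sets. Cd22 thus had clear signal in WT cells, in which Cd79a, Cd79b and Ms4a1 were below the floor.

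The 2 transcription factors of the B cell programme were dim. The brighter probe set of Pax5 had 37.7 in LXR-DKO LPS and 51.0 in LXR-DKO control, against 28.9 in WT LPS and 35.5 in WT control, and the other was below the floor on every array. Its log2 ratios of 0.38 with LPS and 0.52 without were near the spread between probe sets of 0.54 and 0.45. Of 5 Ebf1 probe sets, 2 reached the floor, and only in LXR-DKO LPS. They had 34.2 and 37.7 in LXR-DKO LPS, 20.9 and 20.6 in LXR-DKO control, 8.6 and 2.6 in WT LPS and 15.9 and 3.7 in WT control. With values this close to the floor neither factor showed a difference of 2-fold, although for Ebf1 with LPS the genotype ratio, LXR-DKO over WT, was at least 1.96 on the log2 scale with a floor at the 25th percentile and 1.03 with no floor and 16 added to each signal, and a dim probe set does not show that a gene is off.

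**Figure D2:**
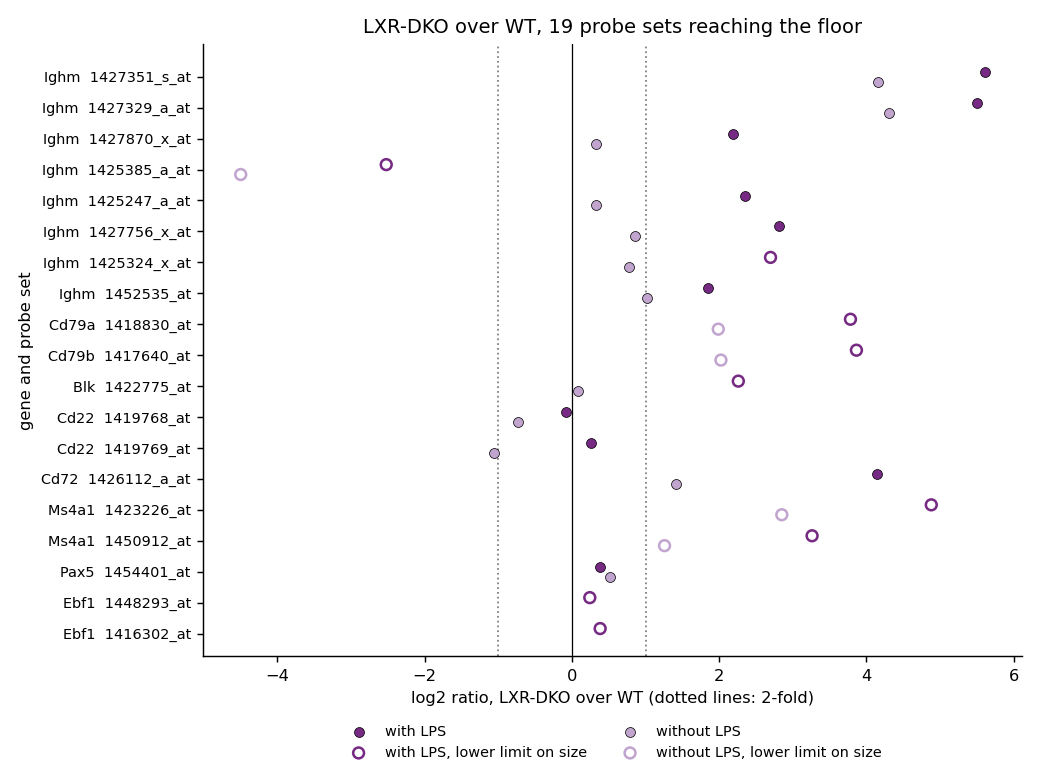
Log2 ratio of LXR-DKO over WT for the 19 member probe sets that reached the floor on at least 1 array, with LPS (dark) and without (light); open points are lower limits on size and dotted lines mark 2-fold. Ratios with LPS lie right of those without LPS for most probe sets, the Cd22 points lie near or left of 0, and 1 Ighm probe set lies far to the left of the others.

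Ighm, the constant part of the IgM heavy chain, has 11 single-gene probe sets, 8 of which reached the floor and 7 of which carry a suffix for targets shared among transcripts. The brightest had 4119.2 in LXR-DKO LPS and 2911.2 in LXR-DKO control, against 84.2 in WT LPS and 162.5 in WT control. The next had 3624.2 and 2458.5 in LXR-DKO LPS and control, against 79.7 and 124.8 in WT LPS and control. These 2 agreed closely, with folds of 48.9 and 45.5 with LPS and 17.9 and 19.7 without. Of the 6 others, 4 with a suffix were higher in LXR-DKO, by 4.57-fold to 7.04-fold with LPS, where 1 of them gave a lower limit, and by 1.25-fold to 1.82-fold without, and the only one of the 8 without a suffix was 3.61-fold and 2.02-fold higher. A further probe set went the other way. It had 22.6 and 10.1 in LXR-DKO LPS and control, against 165.9 and 652.7 in WT LPS and control, and was thus at least 5.74-fold and 22.6-fold lower in LXR-DKO. Over the 8 probe sets the log2 ratio ran between -2.52 and 5.61 with LPS, with a median of 2.52, and between -4.50 and 4.30 without, with a median of 0.82, so the size and in 1 case the direction for this gene rest on the probe set. Which immunoglobulin sequences each probe set can bind was not examined here.

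**Figure D3:**
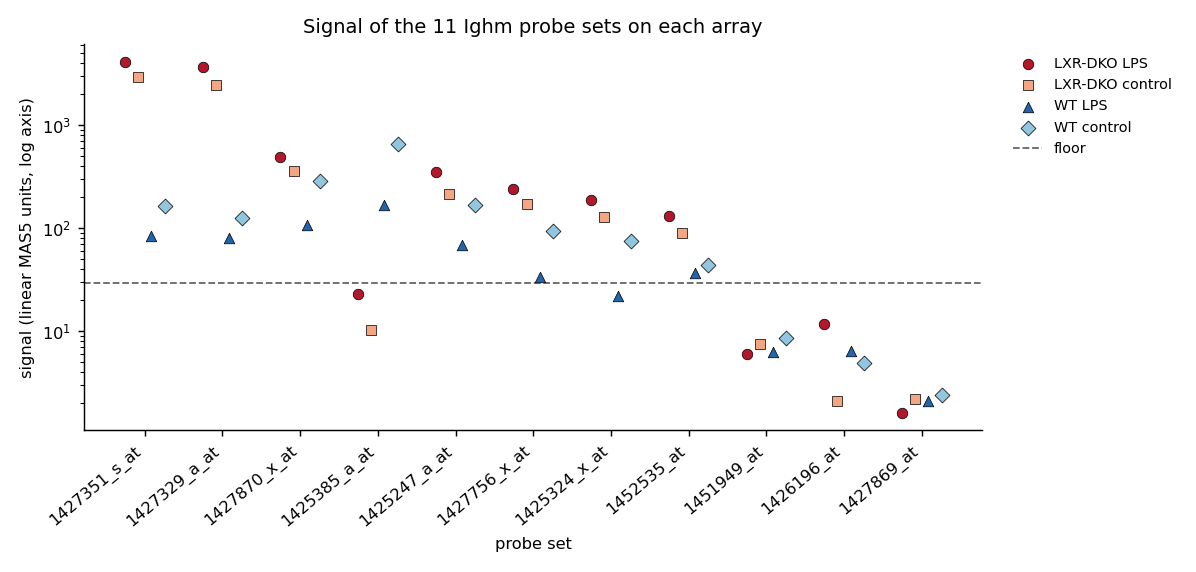
Signal of each of the 11 Ighm probe sets on the 4 arrays, ordered by mean signal, on a logarithmic axis with the floor of 28.9 as a dashed line. The first 2 probe sets separate LXR-DKO from WT by over 10-fold, the fourth has the reverse order, and the last 3 lie below the floor on every array.

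By sign alone, 8 of 9 members were higher with LPS than in control in LXR-DKO, and 4 of the 5 measured in WT were lower. The share of all genes by sign was not counted. Some of these log2 ratios were small, such as at least 0.24 for Ebf1 in LXR-DKO and -0.30 for Pax5 in WT. In LXR-DKO, 5 of 9 members lay 2-fold or more above the control culture, where 6.23% of all genes did, and 0 lay as far below, against 1.82%. In WT, 0 of 5 members were higher by this much, against 2.93% of all genes, and 1, Cd72, was lower, against 4.79%. Over probe sets, 7 of 18 were higher and 0 lower in LXR-DKO, against 5.21% and 3.69% of all probe sets, and 0 of 13 were higher and 6 lower in WT, against 2.63% and 4.29%. The median log2 ratio of members was 1.08 in LXR-DKO and -0.40 in WT, with medians of 0.018 and -0.054 over all genes; the median in WT is that of Blk, a lower limit on its size. Ms4a1 was 4.08-fold higher with LPS in LXR-DKO by its brighter probe set and 4.01-fold by the other. Cd79b was 3.58-fold, Cd79a 3.47-fold, Blk 3.42-fold and Cd72 2.11-fold higher with LPS in LXR-DKO. Beside these 5 genes, Cd22 was 1.95-fold higher with LPS by its brighter probe set and 2.84-fold by the other, and its log2 ratio passed 1 with quantile normalization and with the median over probe sets, which gave 1.23. Ighm was 1.41-fold higher with LPS, and Pax5 stood at a log2 ratio of -0.44. In WT, Cd72 was 3.15-fold lower with LPS, and all 8 Ighm probe sets that reached the floor were lower with log2 ratios of -0.27 to -1.98. The 7 of these with a value in LXR-DKO were higher with LPS there, at 0.48 to 0.73 on the log2 scale. The 2 genotypes share no array in this comparison, and the difference between their LPS responses was not tested.

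**Figure D4:**
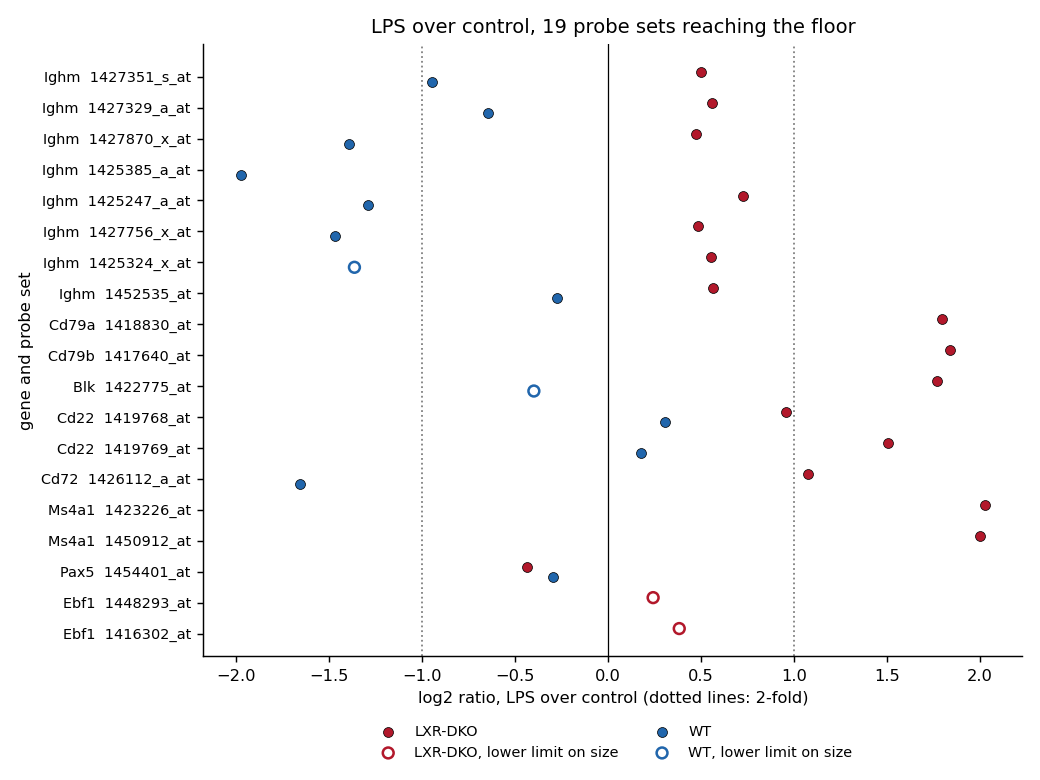
Log2 ratio of LPS over control for the 19 member probe sets that reached the floor, in LXR-DKO (red) and WT (blue); open points are lower limits on size. Red points are right of 0 for 17 of the 18 probe sets measured in LXR-DKO and 11 of the 13 blue points are left of it. Medians over all measured probe sets were -0.025 in LXR-DKO and -0.059 in WT, and their share on each side of 0 was not counted.

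Other genes of the B lineage gave a mixed picture, which depended on the group of genes. Of the 13 B cell transcription factors, 10 were higher in LXR-DKO by 2-fold or more with LPS and 7 without, with 0 lower and medians of 1.84 and 1.10. For these and the gene groups that follow, the shares over all measured genes are 17.8% higher and 8.76% lower with LPS, and 12.7% higher and 9.28% lower without. Of these factors, 13 reached the floor in LXR-DKO LPS and 6 in WT LPS. Genes of any group that were measured only through LXR-DKO could only be higher there, so the counts describe the groups and no more. Spib, a factor of B cells and plasmacytoid DCs, was at least 17.8-fold and at least 9.51-fold higher, and Pou2af1, a coactivator of octamer factors, at least 9.31-fold and at least 2.14-fold. Irf8 and Irf4, which also act in DCs, were 8.85-fold and 4.27-fold higher with LPS and 2.26-fold and 6.87-fold higher without.

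Receptor signalling genes and coreceptors had medians of 0.30 with LPS and 0.62 without, with 5 of 15 measured members higher and 1 lower with LPS and 4 of 14 higher and 2 lower without. The adaptor Bank1, at 472.0 and 271.2 in LXR-DKO LPS and control against 33.6 and 104.3 in WT LPS and control, was 14.0-fold and 2.60-fold higher. The IgM receptor gene Fcmr was at least 10.9-fold higher with LPS and 3.86-fold without. Blnk, the linker downstream of the receptor, was lower in LXR-DKO, with 1324.1 and 183.8 in LXR-DKO LPS and control against 3547.1 and 1686.0 in WT LPS and control. It had 1 probe set, and its differences were 2.68-fold with LPS and 9.17-fold without. Syk, Btk and Plcg2, which myeloid cells use too, had ratios within 2-fold in both comparisons.

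Surface genes of mature B cells had medians of 2.80 with LPS and 1.65 without, with 7 of 11 and 6 of 9 measured members at least 2-fold higher and 0 lower. The class II modifier gene H2-Ob, at least 36.7-fold and 16.6-fold higher, the cytokine gene Ltb at 21.8-fold and 16.8-fold and the class II regulator Ciita at 16.7-fold and 15.4-fold led the group, and each is also active in other antigen-presenting or lymphoid cells. Cxcr5, which guides B cells to follicles, was at least 6.94-fold higher with LPS and at least 1.47-fold without, and Tnfrsf13c, the receptor for the survival factor BAFF, at least 7.86-fold and at least 4.96-fold. Markers of mature B cell subsets were near the floor: Cr2 reached it in LXR-DKO LPS only, at 35.7, and Fcer2a on no array.

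Of 12 genes of early B cells, 5 were below the floor on every array and 7 were not. The recombinase genes Rag1 and Rag2, the terminal transferase gene Dntt, the surrogate light chain gene Vpreb1 and the factor gene Erg were the 5 below it. Of the 6 measured members in each comparison, 2 were higher and 1 lower with LPS and 3 higher and 1 lower without, with medians of 0.29 and 0.56. Cd24a, which encodes a surface protein of many blood cells, was 3.72-fold higher in LXR-DKO with LPS and 2.31-fold without, with 8152.1 and 9085.7 in LXR-DKO LPS and control against 2192.4 and 3925.6 in WT LPS and control. Il7r, the receptor of a lymphoid growth factor, was lower in LXR-DKO by 3.25-fold with LPS and 8.28-fold without, with 2332.6 and 767.0 in LXR-DKO LPS and control against 7577.9 and 6347.5 in WT LPS and control. Ly6d, a marker of B lineage precursors that plasmacytoid DCs share, was 7.60-fold higher with LPS and at least 2.85-fold without.

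Among plasma cell and immunoglobulin genes, 5 of 8 measured members were higher and 1 lower in LXR-DKO with LPS and also without, with medians of 2.68 and 1.32. Igha, the IgA heavy chain, was 48.6-fold and 11.3-fold higher by the brightest of its 3 probe sets, with 3580.1 and 2767.5 in LXR-DKO LPS and control against 73.7 and 244.6 in WT LPS and control. Jchain, which joins IgM and IgA units, was 8.64-fold and 2.62-fold higher and the chaperone gene Mzb1 8.61-fold and 2.72-fold. The surface proteoglycan gene Sdc1 was lower by 2.56-fold and 2.33-fold, Xbp1 and Prdm1 were within 2-fold, and Tnfrsf17, a receptor of mature plasma cells, was below the floor on every array.

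**Figure D5:**
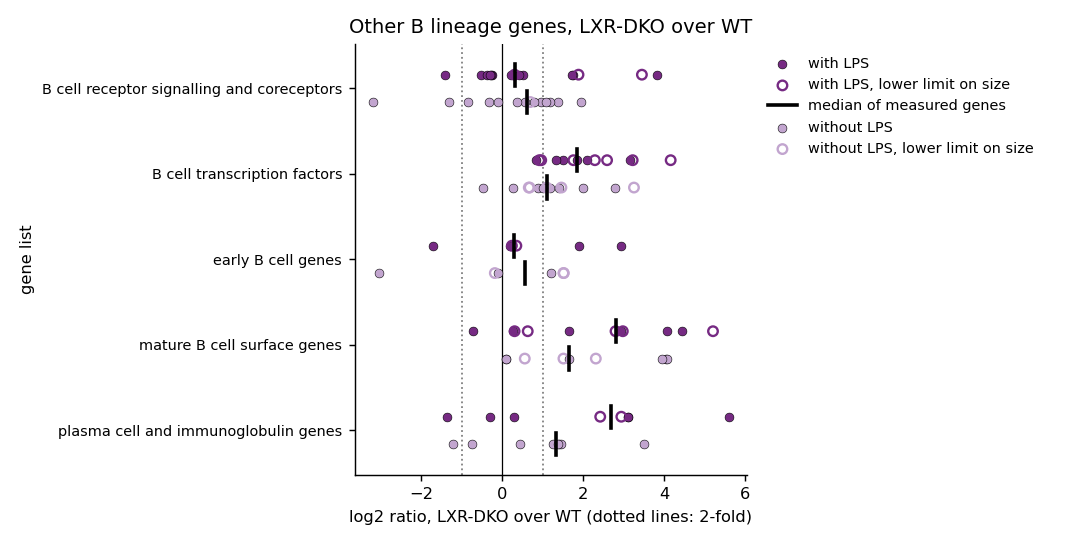
Log2 ratio of LXR-DKO over WT for each measured gene of 5 groups of B lineage genes, with LPS (dark) and without (light); open points are lower limits on size and black bars are medians. The bars for transcription factors, mature surface genes and plasma cell genes lie right of the 2-fold line, and those for signalling genes and early genes lie between 0 and 1.

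Most measured markers of neutrophils, of mast cells and basophils, of DCs and of NK cells were also 2-fold or more higher in LXR-DKO with LPS. Markers of other cells were mixed or within 2-fold. Of the neutrophil markers, 8 reached the floor in LXR-DKO LPS and 3 in WT LPS, so the rest could only be higher in LXR-DKO with LPS. Neutrophil markers were higher in LXR-DKO for 8 of 8 genes with LPS and 7 of 8 without, and their summed signal was 23504.6 and 19038.9 in LXR-DKO LPS and control, against 3181.4 and 1870.1 in WT LPS and control. Mast cell and basophil markers were higher for 6 of 7 and 3 of 7, with sums of 2764.3 and 1015.1 in LXR-DKO LPS and control against 726.5 and 526.2 in WT LPS and control. DC markers were higher for 9 of 12 and 7 of 11, with sums of 54528.6 and 50346.8 in LXR-DKO LPS and control against 23500.8 and 26478.0 in WT LPS and control. Their part in the difference of the B cell genes was not tested. Itgax, the CD11c gene by which the cells were enriched, had signals of 3848.1 and 4404.5 in LXR-DKO LPS and control against 6093.0 and 5012.2 in WT LPS and control. Flt3, a receptor of DC precursors, reached the floor in LXR-DKO LPS only, at 107.3.

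Plasmacytoid DCs share some B lineage transcripts, and their markers differed in level. Siglech, a surface lectin of these cells, had 31.2 and 24.6 in LXR-DKO LPS and control against 6.3 and 19.5 in WT LPS and control, and Ccr9 was below the floor on every array. Bst2, which many cell types make under interferon, had 1447.8 and 469.7 in LXR-DKO LPS and control against 3509.9 and 589.7 in WT LPS and control, and was 2.42-fold lower in LXR-DKO with LPS and within 2-fold without. Of 10 measured plasmacytoid DC markers, 4 were higher and 1 lower with LPS, with a median of -0.13, and without LPS 3 of 9 were higher and 0 lower, with a median of 0.27. The 4 higher with LPS were Spib, Ly6d, Pacsin1 and Tcf4. Pacsin1 had 191.8 and 270.3 in LXR-DKO LPS and control against 4.3 and 7.0 in WT LPS and control. It was at least 6.64-fold higher with LPS and at least 9.35-fold without. Pacsin1 and Spib were below the floor in WT and so could only be higher in LXR-DKO. Tcf4 was 2.72-fold higher with LPS and within 2-fold without. T cell markers had sums of 897.8 and 591.1 in LXR-DKO LPS and control against 1008.6 and 905.8 in WT LPS and control, 1 of 8 measured genes was higher and 2 lower with LPS, and 1 of 5 higher and 1 lower without, and Cd3e and Cd4 were below the floor on every array. With LPS the higher T cell gene was Thy1, by 3.05-fold, and the lower ones were Lat, by 3.60-fold, and Zap70, by at least 4.18-fold. NK cell markers were higher for 3 of 4 measured genes with LPS and 2 of 2 without, with Ncr1 and Gzma below the floor on every array. Among NK cell markers, Klrk1 was at least 8.44-fold higher with LPS and 3.17-fold without, and Klrd1 at least 3.99-fold and at least 2.55-fold. In WT LPS 0 NK cell markers reached the floor, so with LPS they could only be higher in LXR-DKO. Macrophage and monocyte markers were higher for 3 of 9 genes in both conditions, and lower for 2 with LPS and 1 without. Among erythroid markers only Epor reached the floor, with ratios within 2-fold. The 11 B cell markers, 7 of which are members, had a median of 0.34 with LPS and 0.31 without, and 4 of 10 measured genes were higher and 1 lower with LPS, and 3 of 8 higher and 1 lower without. Their summed signal was lower in LXR-DKO, at 3554.3 and 920.9 in LXR-DKO LPS and control against 3974.9 and 2087.6 in WT LPS and control. Blnk alone had 3547.1 and 1686.0 in WT LPS and control, so the WT sums are mostly Blnk.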

How the data were processed

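Transcript signals of 4 cultures, 1 array each, were used. MAS5 was the program, per the submitters' processing notes, with version and settings not given in the sources used here; per the labels' protocols biotinylated cRNA was made by a 2 cycle amplification. The deposited file holds linear intensity values, scaled by the authors to the same trimmed mean (2% left out at each end). Of 45101 probe sets, 64 manufacturer's controls were left out, and 34945 had 1 symbol in the platform annotation. Ratios used a floor at the pooled median, 28.9, and each gene its probe set with the highest mean signal. At least 2-fold, a log2 ratio of 1, was counted among genes with at least 1 of both values at the floor. No p-value was computed. The members, the gene lists and the rule for naming up to 4 genes per list by largest genotype ratio were chosen with earlier results of these data known, and genes named beyond that rule, as low, opposite or defining examples, were chosen after their values were seen. Genes of the lists that no single-symbol probe set names were not analysed here. Alternatives, 8 in all, were 2 scalings, centring, 3 floors and 2 probe set rules. Ratios and counts were tested on simulated data. Python 3.11.15, numpy 2.4.6, pandas 2.3.3 and matplotlib 3.10.9 were used.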

Additional observations from a re-analysis of the deposited data

Results flagged for a closer look

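Members whose log2 LPS responses had opposite signs in the 2 genotypes, each larger than the spread between probe sets, were Ighm, Blk and Cd72. With LPS, Ighm stood at 0.50 in LXR-DKO and -0.95 in WT. Blk stood at 1.77 in LXR-DKO and -0.40 in WT, the WT value a lower limit on its size because WT LPS was below the floor. Cd72 stood at 1.08 in LXR-DKO and -1.65 in WT. With 1 array per group the difference between the responses was not tested.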

How the results depend on the processing

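No paired analysis was possible because each group has 1 array. For members 2-fold higher in LXR-DKO with LPS, the count stayed between 5 and 7 over all settings. Without LPS it was 2 when the floor was raised to the 75th percentile of 177.4. The median with LPS was 1.75 with that floor, 2.52 with the median over probe sets, 2.06 with probe sets without a suffix and, in a setting chosen after seeing the data, 3.02 without Ighm. Without LPS the median was 0.82 with that floor, 1.12 with the median over probe sets and 1.01 without suffixes. For LPS in WT, the number at least 2-fold lower was 0 with that floor, 2 with the median over probe sets and 0 without suffixes, and the median was 0.027 with that floor. A higher floor keeps fewer members, 4 without LPS and 2 for LPS in WT. Without suffixes, Cd72 drops out because its only probe set carries one, so the member called lower in WT is not counted. Ighm then rests on a probe set with log2 ratios of LXR-DKO over WT of 1.85 with LPS and 1.01 without. With the median over probe sets, Ighm stood at -1.33 for LPS in WT and was counted as lower beside Cd72. Shifts not named here were not traced. Of 231 values for single members under alternatives, 203 moved by less than the spread between probe sets, 28 by more, and 0 of those called 2-fold changed sign. The median log2 ratio of all genes with LPS was 0.15 as reported and -0.11 after scaling to the same 75th percentile, so ratios near 0, such as that of Cd22, have no settled sign. Signals near the floor limit what can be said of Pax5 and Ebf1.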

Other observations

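Probe sets that the annotation ties to Ighm together with other immunoglobulin genes were left out of the member counts. There were 4. One listed with Ighv14-2 and Ighg3 had 30.4 in LXR-DKO LPS and 18.4 in LXR-DKO control, against 2.7 in WT LPS and 5.4 in WT control. It passed the floor of 28.9 in LXR-DKO LPS only. One listed with Ighv1-72 had 15.4 and 14.3 in LXR-DKO LPS and control, against 20.7 and 33.4 in WT LPS and control. It passed the floor in WT control only, so no order of the arrays is read from it. The remaining 2 were below the floor on every array.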
